A study of Mus musculus with 67 samples.

Results

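The genes followed here mark or move the muscle progenitors that enter the limb. They are 9 of the 46983 gene IDs in the expression tables: *Pax3*, *Pax7*, *Met*, *Lbx1*, *Six4*, *Eya1*, *Eya2*, *Myf5* and *Myod1*. They were chosen by name, with earlier results of these data known. Each was found once in every table. RNA was sequenced from 14 libraries of mouse forelimb buds in 4 groups. At E9.25 (21 to 23 somites, the pre-HH stage, before Hedgehog signaling starts in the bud) whole forelimb buds were taken from WT embryos (n = 3) and from *Gli3*-/- embryos (n = 4). At E10.5 (32 to 35 somites, the post-HH stage) only the anterior part of the forelimb bud was taken, from WT (n = 4) and *Gli3*-/- embryos (n = 3). The mutants carried the Gli3 Xt-J allele in all cells, a deletion that removes part of the gene, and all embryos were of the Swiss Webster strain. By the sample labels each library was a pool of about 4 pairs of whole buds or of 2 pairs of anterior buds, so that the libraries, and not single embryos, are the replicates. The methods text gives the larger number of pairs for both stages. Stage and dissection changed together, and a difference between E9.25 and E10.5 cannot be told apart from one between a whole bud and its anterior part.

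Skeletal muscle of the limb does not arise from the limb bud itself. Its progenitors form in the lateral lip of the dermomyotome, the dorsal epithelium of the somite, where the paired box factor *Pax3* drives *Met*, the receptor for the growth factor HGF. HGF made by limb mesenchyme lets these cells leave the epithelium, and the homeobox factor *Lbx1* is needed for their route into the bud. Six4, with Eya proteins as its coactivators, acts upstream of *Pax3* and of the myogenic regulatory factors. *Myf5* and *Myod1* commit the cells to the muscle fate after they have arrived. *Pax7* marks later progenitors and satellite cells. Gli3 is the main repressor of the Hedgehog pathway in the limb bud, and its loss was the perturbation in the RNA libraries.

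Expression is given as TPM, the share of a gene among the transcripts of its library, which is scaled per length and can be compared between genes. Depth, estimated from coverage and FPKM, was 38.1 to 56.8 M reads a library, and a TPM of 1 corresponded to 20.7 to 29.3 reads per kilobase. *Gli3* itself stood at 14.3 to 20.8 TPM in E9.25 *Gli3*-/- libraries against 15.8, 44.2 and 44.6 in E9.25 WT, and at 38.7 to 40.9 against 73.4 to 89.7 at E10.5. The low WT value came from E9.25 WT replicate 2, which overlapped the mutants in *Gli3* and also had the lowest *Met* and *Six4* of all libraries. That library also had the lowest depth, 38.1 M reads, and the fewest genes at a TPM of 1 or more, 13276. Markers of limb mesenchyme were abundant in every group, with *Prrx1* at 70.5 to 302 TPM and *Tbx5*, a forelimb gene, at 24.1 to 76.1 TPM. Groups were compared with limma on log2(TPM + 1), with p-values adjusted over all genes tested and a threshold of 0.05, and fold changes on that scale understate the change of low genes. *Gli3*-/- replicate 3 at E10.5 stood apart in embryonic blood markers, which summed to 33228 TPM there and to 11895 and 12975 TPM in the other 2 libraries of its group, and it had the lowest value of the group for all 9 members. Buds were pooled from multiple litters, which litters went into which library is not given in the sources used here, and the p-values measure the spread between these libraries.

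Promoter sequence from RefSeq (GRCm38.p6) was at hand for 4 of the 9 genes, *Pax7*, *Met*, *Six4* and *Myf5*. *Myf5* is shown because it went from 0 in 6 of the 7 E9.25 libraries to a measured level in all 7 at E10.5. These are the 250 bases before its start, chr10:107486135-107486384, minus strand, 5′ to 3′, outside the gene span that the expression tables give:

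Myf5: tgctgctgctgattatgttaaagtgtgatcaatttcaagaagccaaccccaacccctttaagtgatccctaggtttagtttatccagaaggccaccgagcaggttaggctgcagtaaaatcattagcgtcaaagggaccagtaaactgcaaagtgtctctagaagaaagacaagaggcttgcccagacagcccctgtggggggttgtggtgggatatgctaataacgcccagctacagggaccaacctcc

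The motifs searched on both strands of such windows were CANNTG (the E-box, a general pattern read by many factors, myogenic and other), TCAGGTT (MEF3, which Six4 reads), GTCACGC (the core of a paired domain site) and TGGGTGGTC (the GLI site). None of them occurred in the *Myf5* window, where 66.2% of all 32851 promoter windows held an E-box. Windows of *Met* and *Six4* held a match, shown in capitals with 10 bases on either side:

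Met, E-box, chr6:17463821-17463846, plus strand: gacgaacagaCACGTGctggggcggg

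Six4, MEF3 on the opposite strand, chr12:73113326-73113352, minus strand: gcctgggggaAACCTGAtcggccagat

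The *Met* match lay 126 bases before the RefSeq start. The *Six4* match lay 97 bases before 1 of its 2 starts, and 3.49% of all windows held that motif. Unlike the *Myf5* window, both matches lay inside the gene spans that the expression tables give. These spans are chr6:17463800-17573980 for *Met* and chr12:73099609-73113456 for *Six4*. No member window held the GLI or the paired domain letters, which 0.225% and 1.78% of all windows held. A match in such a window is a description of letters and not a binding site.

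The 9 genes together summed to 14.8 to 27.8 TPM in E9.25 WT, 26.6 to 40.1 in the E9.25 mutants, 81.5 to 93.4 in E10.5 WT and 58.8 to 82.2 in E10.5 *Gli3*-/-. At E9.25 *Six4* and *Met*, genes that other tissues also use, had the highest group means, and *Myf5* and *Myod1* were at or near 0. *Lbx1* stood level with the Eya genes in E9.25 WT, at a mean of 2.18 TPM against 2.39 for *Eya1* and 2.12 for *Eya2*, and below both in every E9.25 mutant library. At E10.5 *Pax3* and *Lbx1* stood close to *Met*, and *Myf5* had appeared. In bulk tissue, fewer cells of a type and less RNA per cell cannot be told apart.

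**Figure D1:**
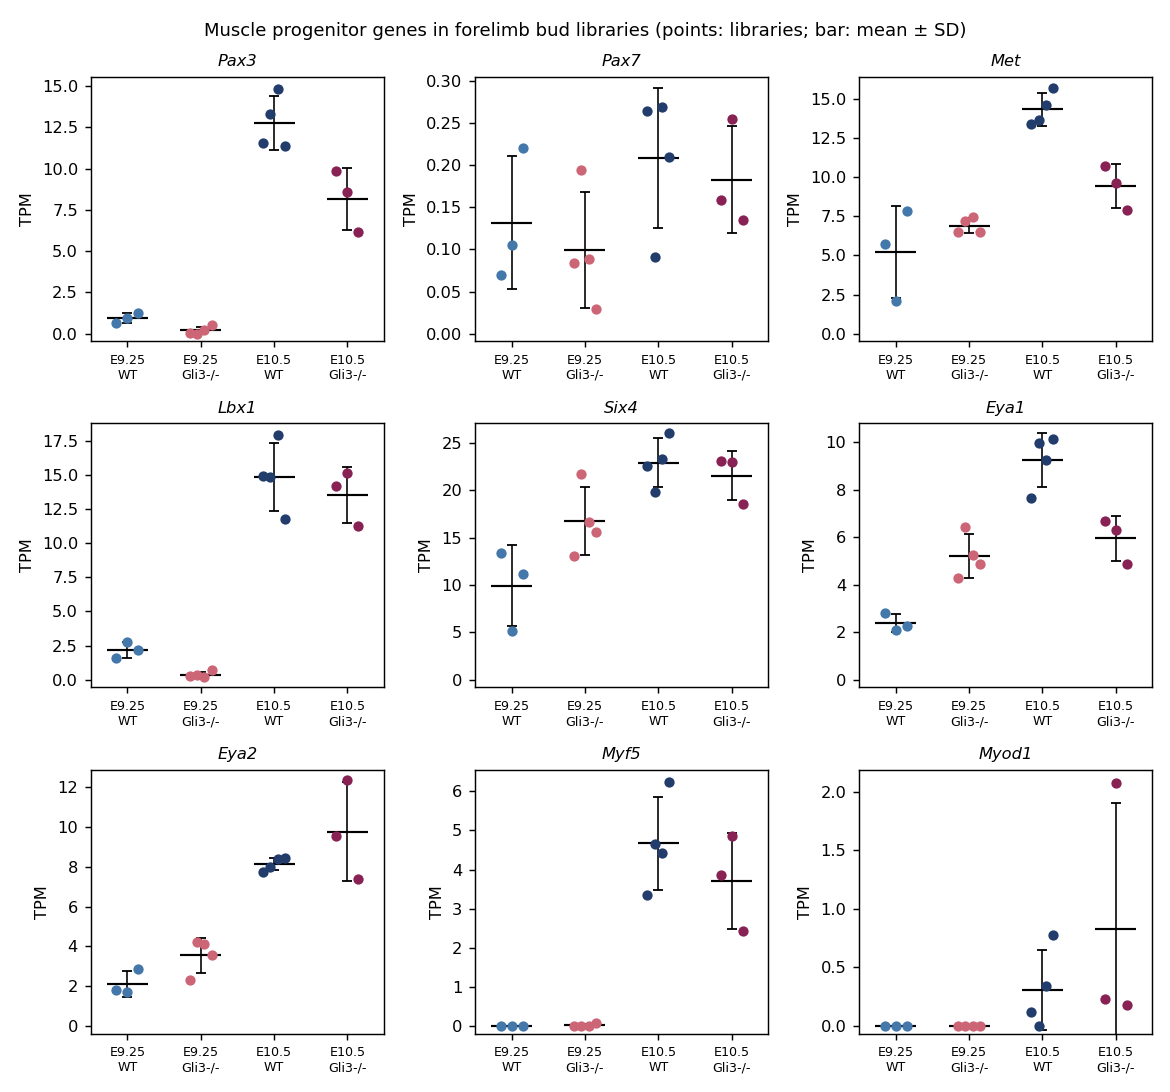
TPM (y axis, linear) of the 9 muscle progenitor genes in each of the 14 libraries, by group (x axis), with 1 panel a gene, points for libraries and bars for the group mean ± SD. All E10.5 WT points of *Pax3*, *Met*, *Lbx1*, *Six4*, *Eya1*, *Eya2* and *Myf5* sit above all E9.25 WT points, and the E10.5 *Gli3*-/- points of *Pax3*, *Met* and *Eya1* sit below all E10.5 WT points.

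The first comparison asks which of these genes differed between the pre-HH and the post-HH bud of WT embryos. *Pax3* stood at 0.615, 0.968 and 1.23 TPM in the 3 E9.25 WT libraries and at 11.6, 13.3, 14.8 and 11.4 TPM in the 4 E10.5 WT libraries. The means, 0.939 ± 0.310 and 12.8 ± 1.62 (SD, n = 3 and 4), differed 13.6-fold, the widest ratio of mean TPM among the members with a level above 0 in every WT library. On the log2 scale *Pax3* rose by 2.83 ± 0.17 (SE; adjusted p = 2.85e-05, limma). *Pax7*, its paralog, stayed between 0.070 and 0.269 TPM in all WT libraries, below the filter of a TPM of 1 in 3 libraries, and was not tested.

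*Lbx1*, the gene for the migration route, read 1.60, 2.76 and 2.18 TPM at E9.25 and 14.9, 14.9, 17.9 and 11.8 TPM at E10.5 in WT. It rose 6.82-fold by mean TPM and by 2.32 ± 0.19 on the log2 scale (adjusted p = 8.72e-05). *Met*, the HGF receptor, read 5.74, 2.05 and 7.84 TPM at E9.25 and 13.4, 13.7, 14.7 and 15.7 TPM at E10.5. Its rise was smaller, 2.76-fold and 1.44 ± 0.32 on the log2 scale (adjusted p = 0.00724), and it was the least even member at E9.25 WT among those tested, with an SD of 2.93 TPM around a mean of 5.21. Without E9.25 WT replicate 2, its low library, the log2 change of *Met* was 0.99 and still passed the test (adjusted p = 0.0238).

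*Six4* and its coactivators *Eya1* and *Eya2* were already well above 0 in the pre-HH bud. *Six4* read 13.4, 5.17 and 11.2 TPM at E9.25 and 22.5, 19.8, 23.3 and 26.0 TPM at E10.5, a rise of 1.21 ± 0.27 (adjusted p = 0.00720). *Eya1* went from 2.80, 2.08 and 2.28 TPM to 7.66, 9.97, 9.26 and 10.1 TPM, a rise of 1.60 ± 0.16 (adjusted p = 0.000227). *Eya2* went from 1.79, 1.69 and 2.87 TPM to 7.75, 8.0, 8.38 and 8.43 TPM, a rise of 1.57 ± 0.17 (adjusted p = 0.000338). The last 4 values lie closer together than those of any other member in any group, with a coefficient of variation of 4.0%. By mean TPM *Eya1* and *Eya2* differed 3.88-fold and 3.85-fold between the stages, and *Six4* differed 2.31-fold.

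Of the myogenic factors, *Myf5* was listed at 0 in all 3 E9.25 WT libraries and at 3.36, 4.64, 4.43 and 6.24 TPM at E10.5, which gives no fold. Its log2(TPM + 1) rose by 2.48 ± 0.19 (adjusted p = 7.26e-05). *Myod1* was listed at 0 in all 3 and then at 0.117, 0, 0.342 and 0.775 TPM. The anterior E10.5 bud therefore held *Myf5* transcripts in every WT library while *Myod1* did not reach 1 TPM in any of them, and *Myod1* was not tested.

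In all, 7 of the 9 members passed the filter in the WT stage comparison and all 7 were called higher at E10.5, where 38.1% of the 15444 genes tested were called higher. That share depended on the scaling, because the median gene lay 0.34 above 0 in this comparison. With median-of-ratios size factors it was 20.6% and with quantile normalization 17.3%, and the 7 members were called in both. *Pax3* and *Myf5* passed the filter through their E10.5 libraries alone, so that for these 2 a rise was built into the passing. The members' median change was 1.60 and that of all genes 0.34.

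The same comparison in *Gli3*-/- buds gave a different order. *Lbx1* went from 0.305, 0.329, 0.203 and 0.692 TPM at E9.25 to 14.2, 15.1 and 11.2 TPM at E10.5, which is 35.4-fold by mean TPM and a rise of 3.39 ± 0.18 on the log2 scale (adjusted p = 8.17e-07). *Pax3* went from 0.047, 0, 0.223 and 0.512 TPM to 9.84, 8.55 and 6.13 TPM, a rise of 2.94 ± 0.21 (adjusted p = 5.97e-06). With 1 library at 0 it is given no fold. *Myf5*, at 0 in 3 mutant libraries and 0.066 TPM in the other at E9.25, read 3.85, 4.86 and 2.43 TPM at E10.5 and rose by 2.18 ± 0.19 (adjusted p = 3.00e-05). These 3 genes were low in every E9.25 mutant library and higher in every E10.5 mutant library. *Pax7* and *Myod1* read 0.135 to 0.255 and 0.176 to 2.07 TPM in the E10.5 mutants and were not tested.

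*Eya2* was the other member called in the mutants. It read 2.32, 4.23, 4.11 and 3.56 TPM at E9.25 and 9.53, 12.3 and 7.39 TPM at E10.5, a rise of 1.24 ± 0.21 (adjusted p = 0.00200). *Eya1* read 4.27, 6.45, 5.26 and 4.87 TPM and then 6.68, 6.32 and 4.87 TPM, ranges that overlap, with a log2 change of 0.17 ± 0.17 (adjusted p = 0.518; 95% CI -0.21 to 0.54). *Six4* also overlapped, at 13.1, 21.7, 16.7 and 15.6 TPM and then 23.0, 23.0 and 18.6 TPM, and its change of 0.36 ± 0.17 did not pass (adjusted p = 0.152). *Six4* passed when E9.25 *Gli3*-/- replicate 2, its highest library at that stage, was left out (adjusted p = 0.0328). *Met* did not overlap, at 6.51, 7.18, 7.48 and 6.49 TPM and then 10.7, 9.65 and 7.91 TPM, yet its change of 0.39 ± 0.14 missed the threshold (adjusted p = 0.0736). Thus 4 of 7 members tested were called higher, where 15.8% of all 15434 genes tested were, and *Pax3*, *Lbx1* and *Myf5* passed the filter through the E10.5 libraries alone. This comparison and the one in WT share no library.

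**Figure D2:**
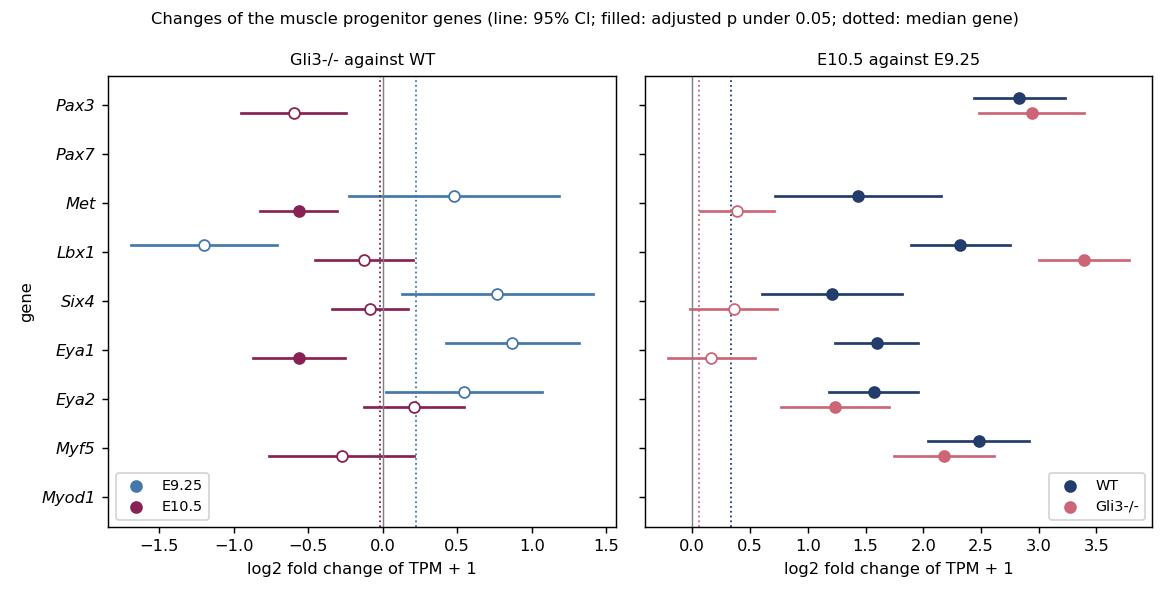
Log2 fold change of TPM + 1 (x axis) for each member (y axis), with the 95% confidence interval as a line, for *Gli3*-/- against WT at each stage (left) and E10.5 against E9.25 in each genotype (right). Filled points passed an adjusted p of 0.05, dotted lines mark the median gene of each comparison, and genes without a point were below the filter. All 7 WT stage changes are filled, whereas of the *Gli3*-/- against WT changes only *Met* and *Eya1* at E10.5 are.

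Loss of *Gli3* in the anterior E10.5 bud was the next comparison. *Met* read 13.4 to 15.7 TPM in the 4 WT libraries and 7.91 to 10.7 TPM in the 3 mutants, means of 14.4 ± 1.06 and 9.43 ± 1.43 (SD), and the groups did not overlap. It was downregulated by 0.57 ± 0.12 on the log2 scale (log2 fold change -0.57, adjusted p = 0.0251), a ratio of 1.52 of the WT to the mutant mean. *Eya1* read 7.66 to 10.1 TPM in WT and 4.87 to 6.68 TPM in mutants, without overlap, and was downregulated by a similar amount (log2 fold change -0.56 ± 0.14, adjusted p = 0.0498). *Pax3* read 11.4 to 14.8 TPM in WT and 6.13 to 9.84 TPM in mutants, also without overlap. Its estimate was the largest of the 3 (-0.60 ± 0.16, 95% CI -0.95 to -0.25) and it missed the threshold (adjusted p = 0.0636). *Met*, *Eya1* and *Pax3* thus had nearly equal estimates, which lay on both sides of the threshold.

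The remaining members overlapped between the genotypes at E10.5. *Lbx1* read 11.8 to 17.9 TPM in WT and 11.2 to 15.1 TPM in mutants (log2 fold change -0.12 ± 0.15, 95% CI -0.45 to 0.20, adjusted p = 0.700). *Six4* read 19.8 to 26.0 and 18.6 to 23.0 TPM (-0.09 ± 0.11, adjusted p = 0.732). *Eya2* read 7.75 to 8.43 and 7.39 to 12.3 TPM (0.21 ± 0.15, adjusted p = 0.491), the only estimate above 0. For the muscle determination gene *Myf5* the ranges were 3.36 to 6.24 and 2.43 to 4.86 TPM (-0.28 ± 0.22, 95% CI -0.76 to 0.21, adjusted p = 0.537). *Pax7* stayed at 0.091 to 0.269 TPM in WT and 0.135 to 0.255 TPM in mutants. *Myod1* read 0 to 0.775 TPM in WT and 0.234, 2.07 and 0.176 TPM in mutants, so that 1 mutant library alone exceeded 1 TPM.

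Of the 7 members tested at E10.5, 2 were called, where 4.77% of 15654 genes were called in either direction, and 3 had groups that did not overlap, where 19.3% of genes did. The median gene was at -0.02, and the members' median was -0.28, or -0.064 without E10.5 *Gli3*-/- replicate 3, the library with the most blood markers. Both calls lay near the threshold. *Met* lost its call without E10.5 *Gli3*-/- replicate 2 (adjusted p = 0.0622) or 3 (0.0968) and without WT replicate 1 (0.0533), 3 (0.0595) or 4 (0.0721), and *Eya1* lost it without any of the libraries but WT replicate 1, at adjusted p = 0.0717 to 0.183. Over the 9 other settings *Met* passed in 6 (adjusted p from 0.0208 with size factors) and was lost with no filter (0.0692), with the replicate block (0.211) and with 1 model of all 14 libraries (0.421), under which 2.59% of genes were called. *Eya1* passed in 2 of the 9, and its adjusted p reached 0.271 with the replicate block. Summed markers of limb mesenchyme also differed between these groups, at 996 to 1231 TPM in WT and 748 to 782 TPM in mutants. Of these 7 mesenchyme markers, 5 were called lower and 1 higher, where 2.93% and 1.84% of all genes were. The lower ones were led by *Lhx9* (-0.93), *Msx1* (-0.86) and *Twist1* (-0.65), and the higher one was *Fgf10* (1.05). Of the 6 surface ectoderm markers only *Fgf8*, a signal of the apical ridge, was called higher (1.84% of all genes), and 0 lower (2.93%). It read 131 to 171 TPM in mutants against 50.4 to 69.0 TPM in WT. The part of these tissues in the changes of *Met* and *Eya1* was not tested.

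Within each E10.5 library, *Pax3* was set against *Lbx1*, a ratio chosen after the values were seen and given without a test. It was 0.777, 0.895, 0.828 and 0.963 in WT and 0.693, 0.566 and 0.546 in *Gli3*-/-, so that the mutants lay below all WT libraries. *Met* over *Lbx1* was 0.820 to 1.33 in WT and 0.638 to 0.756 in mutants, again without overlap. *Myf5* over *Pax3* ran from 0.290 to 0.549 in WT and from 0.391 to 0.568 in mutants, and these overlapped.

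At E9.25, before Hedgehog signaling, loss of *Gli3* gave no call among the 5 members tested with limma, where 0.136% of 14760 genes were called. At an unadjusted p under 0.05 there were 4 of the 5 members (*Lbx1*, *Eya1*, *Six4* and *Eya2*) and 3247 of the 14760 genes. Without E9.25 WT replicate 2 the count of genes was 1629, and that of members is not given here. *Lbx1* read 1.60 to 2.76 TPM in the 3 WT libraries and 0.203 to 0.692 TPM in the 4 mutants, without overlap, a ratio of 5.70 of the WT to the mutant mean. Its log2 fold change of -1.20 ± 0.22 (95% CI -1.69 to -0.71) had an adjusted p of 0.0800, and it passed the filter only through its WT libraries. *Pax3* did not pass the filter at this stage. It read 0.615 to 1.23 TPM in WT and 0 to 0.512 TPM in mutants, without overlap, and gave -0.70 ± 0.18 with an adjusted p of 0.374 when no filter was used. *Lbx1* and *Pax3* were thus lower in every mutant library than in any WT library, at levels near 1 TPM, and neither passed the test.

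*Six4* and the Eya genes lay the other way at E9.25. *Eya1* read 2.08 to 2.80 TPM in WT and 4.27 to 6.45 TPM in mutants, without overlap, and its log2 fold change of 0.87 ± 0.20 had an adjusted p of 0.147. *Six4* read 5.17 to 13.4 and 13.1 to 21.7 TPM (0.77 ± 0.29, adjusted p = 0.217), and 0.40 without E9.25 WT replicate 2, the low library. *Eya2* read 1.69 to 2.87 and 2.32 to 4.23 TPM (0.55 ± 0.24, adjusted p = 0.223). *Met* read 2.05 to 7.84 and 6.49 to 7.48 TPM (0.48 ± 0.32, adjusted p = 0.341), so that its mutant values lay inside the WT range, and without E9.25 WT replicate 2 the estimate was 0.034. *Pax7*, *Myf5* and *Myod1* were at 0.221 TPM or below in all 7 libraries. Groups of 2 of the 5 members tested did not overlap, *Lbx1* and *Eya1*, where 13.3% of genes did not.

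The median gene at E9.25 lay 0.23 above 0, a shift that size factors reduced to 0.02. Relative to it *Lbx1* was at -1.42, *Eya1* at 0.65 and *Six4* at 0.54. When the spread was taken from 1 model of all 14 libraries, *Lbx1* (adjusted p = 0.00430) and *Eya1* (0.0120) passed, where 8.03% of all genes did, and *Lbx1* also passed without E9.25 WT replicate 1 (0.0370). Markers of the flank and lateral plate moved with genotype at this stage. They summed to 19.9 to 55.4 TPM in WT and 78.2 to 212 TPM in mutants, and no gene of the list was at 0 in either group. Of the 6, 3 (*Foxf1*, *Gata4* and *Osr1*) were called higher in mutants, where 0.108% of all genes were. Endothelial markers summed to 59.3 to 94.9 TPM in WT and 108 to 157 TPM in mutants, also without overlap. Of these 0 of 6 were called, where 0.136% of all genes were. The part of flank and endothelial tissue in the E9.25 values of the members was not tested.

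The interaction of stage and genotype asks whether the effect of *Gli3* loss differed between the 2 stages. *Eya1* was the clearest member, with an effect of 0.87 at E9.25 and -0.56 at E10.5. The difference of -1.43 ± 0.22 passed the test (adjusted p = 0.00393), and it also passed in each of the 14 fits without 1 library and in all 8 other settings (adjusted p = 0.00274 to 0.0331). *Lbx1* went the opposite way, from -1.20 at E9.25 to -0.12 at E10.5, a difference of 1.07 ± 0.26 (adjusted p = 0.0445). Every WT library thus lay above every mutant for *Lbx1* at the early stage, and the ranges overlapped at the later one. That call held in 3 of 14 fits without a library (E9.25 WT replicate 1, E9.25 *Gli3*-/- replicate 4 or E10.5 WT replicate 3, adjusted p = 0.0164, 0.0237 and 0.0471) and was lost without any of the other 11, at 0.0563 to 0.108. Over 8 other settings it passed in 4, among them a pseudocount of 0.1, which gave 2.17 (adjusted p = 0.0169). It was lost with no filter (0.0900), with the filter at a TPM of 5 (0.0515), with sample quality weights (0.0545) and with the replicate block (0.143).

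*Met* (-1.05 ± 0.36, adjusted p = 0.15) and *Six4* (-0.86 ± 0.34, adjusted p = 0.186) had differences of the same sign as *Eya1* that did not pass. *Six4* passed without E9.25 WT replicate 1 (-1.10, adjusted p = 0.0485). Without E9.25 WT replicate 2 the differences shrank to -0.60 for *Met* and -0.49 for *Six4*. *Pax3* had one of 0.11 ± 0.27 (95% CI -0.48 to 0.69, adjusted p = 0.830). *Eya2* (-0.34 ± 0.28, adjusted p = 0.466) and *Myf5* (-0.30 ± 0.27, adjusted p = 0.510) lay close to the median gene, which was at -0.24 in this comparison. In total 2 of 7 members tested were called, 1 in each direction, where 2.13% of 16368 genes were called in either direction.

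The order of the 4 groups differed among the members. *Pax3* and *Lbx1* rose through E9.25 mutants, E9.25 WT, E10.5 *Gli3*-/- and E10.5 WT by their means, and for *Pax3* no neighbours in this order overlapped, whereas for *Lbx1* the 2 E10.5 groups did. *Met*, *Six4* and *Eya1* began with E9.25 WT in place of the mutants. For *Six4* each pair of neighbours overlapped. For *Eya1* the groups in the middle, both from mutants, overlapped, with all E9.25 WT libraries below them and all E10.5 WT libraries above. *Eya2* was the only member above 1 TPM with its highest mean in E10.5 *Gli3*-/-, 9.75 TPM, which overlapped the 8.14 TPM of E10.5 WT.

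How the members moved together over the 14 libraries was described with Pearson's r of log2(TPM + 1), where the libraries share stage and dissection. All 36 pairs had a positive r, from 0.379 to 0.983, and the highest was that of *Pax3* with *Lbx1*. After each group was centred on its own mean, 31 pairs were above 0 and 5 below, from -0.395 to 0.834. *Pax3* and *Lbx1* kept an r of 0.737, and *Met* with *Six4* had the highest, 0.834, whereas *Lbx1* with *Six4* had the lowest. Without E9.25 WT replicate 2, where *Met* and *Six4* both had their lowest level, those values were 0.793 for *Pax3* with *Lbx1* and 0.361 for *Met* with *Six4*.

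Outside the 9 members, the genes most like *Pax3* over the 14 libraries were *Aes* (r = 0.992), *Tsc22d3* (0.992), *Galnt5* (0.983), *Fibin* (0.982) and *Pcdh19* (0.982). *Aes*, a Groucho-related corepressor, went from 25.0 TPM in WT and 17.4 in mutants at E9.25 to 198 and 143 TPM at E10.5. Those most like *Lbx1* were *Tbx15* (0.991), *Gja5* (0.989), the agouti gene *a* (0.987), *Hoxa10* (0.986) and *Nnat* (0.985). *Tbx15*, a T-box factor of limb mesenchyme, averaged 5.11 TPM in E9.25 WT, 0.69 in the E9.25 mutants, and 103 and 128 TPM in the E10.5 groups. With groups centred, the median r of the 5 genes fell to 0.441 for *Pax3* and 0.592 for *Lbx1*, and *Galnt5* was at -0.05.

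Relatives of *Six4*, *Eya1* and *Eya2* were also higher at the later stage in WT. Of 6 such genes (*Six2*, *Six5*, *Eya3*, *Eya4*, *Dach1* and *Dach2*), all 6 were called higher at E10.5 in WT (38.1% of all genes), and in mutants 3 were called higher (15.8%) and 1, *Dach1*, lower (9.17%). *Six2* was below 1 TPM in all E9.25 WT libraries and passed the filter there through E10.5 alone. *Eya4* read 1.84, 0.596 and 2.17 TPM in E9.25 WT and 10.1, 9.94, 11.0 and 13.5 TPM in E10.5 WT. It rose by 2.31 ± 0.25 in WT (adjusted p = 0.000326) and by 1.44 ± 0.19 in mutants (adjusted p = 0.000418), with E10.5 mutant values of 6.84, 6.36 and 4.03 TPM, below every E10.5 WT library. *Six2* (1.54), *Dach1* (1.23) and *Six5* (1.15) had the next largest rises in WT.

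Loss of *Gli3* at E10.5 downregulated 3 of these 6 genes and upregulated 0, where 2.93% and 1.84% of all genes were called lower and higher. *Dach1*, which encodes a corepressor that works with Eya proteins, read 28.1 to 34.3 TPM in WT and 10.3 to 15.4 TPM in mutants (log2 fold change -1.29 ± 0.13, adjusted p = 0.000806). *Dach2* (-1.0 ± 0.18, adjusted p = 0.0163) and *Eya4* (-0.86 ± 0.17, adjusted p = 0.0218) were also lower, while *Six2* was not called (0.14 ± 0.16, adjusted p = 0.708). *Dach1* had an interaction of -2.14 ± 0.37 (adjusted p = 0.00740), the same sign as that of *Eya1*. At E9.25, 0 of 5 tested were called, where 0.136% of all genes were.

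The signals that guide migration were present in the bud at both stages. *Hgf*, the ligand of *Met*, was made at 19.5 to 32.9 TPM in E9.25 WT and 19.2 to 28.3 TPM in E10.5 WT, with no change called (-0.08 ± 0.19, adjusted p = 0.732). It read 10.3 to 19.9 TPM in E9.25 mutants and 14.7 to 23.2 TPM in E10.5 mutants, and neither genotype comparison passed. *Hgf* was therefore above *Met* in each WT group mean, 24.8 against 5.21 TPM at E9.25 and 23.0 against 14.4 TPM at E10.5. *Cxcr4*, the chemokine receptor of migrating progenitors and also of endothelium, read 1.44 to 2.32 TPM in E9.25 WT and 9.69 to 11.8 TPM in E10.5 WT, a rise of 2.10 ± 0.16 (adjusted p = 7.56e-05). Its ligand *Cxcl12* rose by 2.22 ± 0.24 in WT (adjusted p = 0.000361), and *Gab1*, the adaptor of *Met*, by 0.90 ± 0.16 (adjusted p = 0.00285). Of the 4 genes, 3 were called higher by stage in WT (38.1% of all genes) and 2 in mutants (15.8%). Between genotypes 0 were called at either stage, where 0.136% of all genes were called at E9.25 and 4.77% at E10.5.

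**Figure D3:**
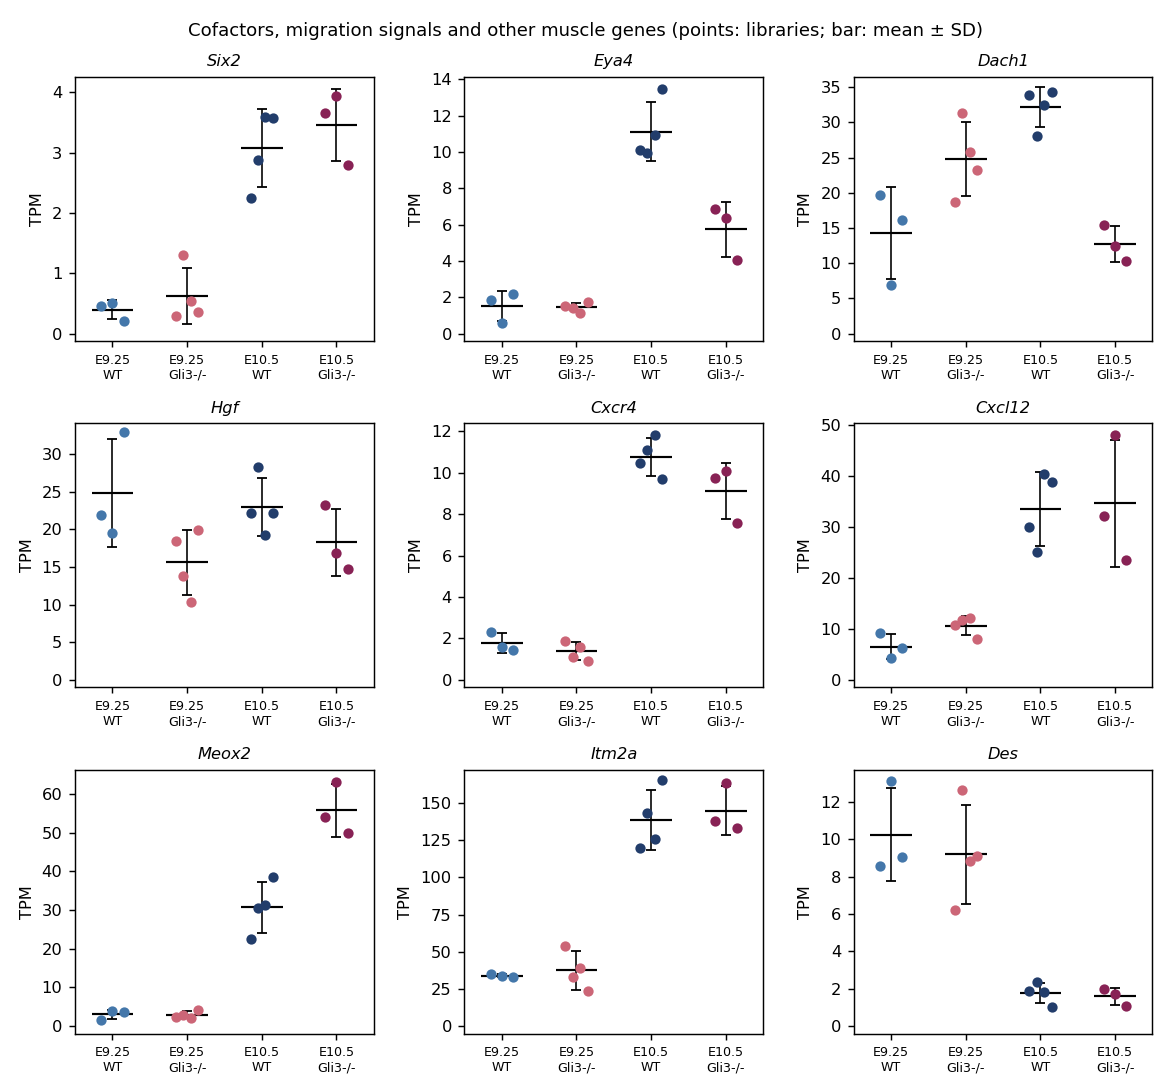
TPM (y axis, linear) of 9 genes that act with the members, by group (x axis), with points for libraries and bars for the group mean ± SD. *Six2*, *Cxcr4*, *Cxcl12*, *Meox2* and *Itm2a* sit higher in both E10.5 groups than in both E9.25 groups, *Hgf* overlaps between the stages, *Dach1* is lower in E10.5 *Gli3*-/- than in E10.5 WT, and *Des* is lower at E10.5.

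Among 7 other genes of muscle progenitors, 2 passed the filter in the WT stage comparison and both were called higher (38.1% of all genes). *Meox2*, a homeobox gene of somites and limb muscle progenitors, rose by 3.02 ± 0.25 in WT (adjusted p = 0.000106), from 1.59 to 3.82 TPM up to 22.6 to 38.5 TPM. At E10.5 it was higher in mutants, at 50.0 to 63.3 TPM (log2 fold change 0.86 ± 0.16, adjusted p = 0.0164), the opposite direction to *Met* and *Eya1*. *Itm2a* rose by 2.00 ± 0.12 (adjusted p = 2.85e-05). In mutants 2 of 3 tested were called higher by stage (15.8% of all genes), *Meox2* and *Itm2a*, and 1 lower (9.17%), *Tcf21*. *Tcf21*, which also marks lateral plate derivatives, was the 1 gene of the list called at E9.25, out of 3 tested (1.53 ± 0.23 higher in mutants, adjusted p = 0.0380, limma). Of all genes 0.108% were called higher there. It read 0.694 to 1.47 TPM in WT and 3.43 to 5.65 TPM in mutants, and passed the filter through the mutants.

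The tested genes of differentiated muscle mostly did not follow the members. Of 15, 4 passed the filter in the WT stage comparison, where 0 were called higher and 2 lower (38.1% and 10.6% of all genes). In mutants 7 were tested, and 1 was called higher and 3 lower by stage (15.8% and 9.17% of all genes). The higher one was *Chrna1* (1.38 ± 0.15, adjusted p = 0.000144, limma), which passed the filter there through E10.5 alone. *Myog*, which drives differentiation, was listed at 0 in all 7 E9.25 libraries and reached at most 0.353 TPM in E10.5 WT and 0.484 TPM in E10.5 mutants. *Des* fell by 2.03 on the log2 scale in WT (adjusted p = 0.000355), from 8.59 to 13.1 TPM down to 1.01 to 2.34 TPM. *Tnnt1*, a troponin gene, fell by 0.47 (adjusted p = 0.0240). In the same comparison, 4 of 5 flank markers tested were called lower and 1 higher (10.6% and 38.1% of all genes). Of the heart muscle markers, 2 of 2 tested were called lower. The part of these tissues in the falls of *Des* and *Tnnt1* was not tested. Of 5 differentiation genes tested between genotypes at E10.5, 1 was called higher, *Chrna1*, where 1.84% of all genes were, and 0 lower. It read 0.418 to 0.553 TPM in WT and 1.74 to 2.23 TPM in mutants (log2 fold change 1.03 ± 0.14, adjusted p = 0.00337, limma). It passed the filter through the mutant libraries alone. The anterior E10.5 buds therefore held *Myf5* but hardly any *Myog*.

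*Pax3* and *Lbx1* are also used in the dorsal neural tube and *Pax3* in neural crest, and the buds were checked for tissue that lies next to them. The 11 neural tube and neural crest markers summed to 1.55 to 5.16 TPM over all 14 libraries, and the first of them, *Sox1* and *Sox2*, reached at most 0.074 and 0.512 TPM in a library. The somite markers summed to 22.2 to 27.2 TPM in E9.25 WT, 22.1 to 29.4 in the E9.25 mutants, 60.5 to 110 in E10.5 WT and 39.7 to 66.2 in E10.5 *Gli3*-/-. Of the 4 tested in WT, 3 were called higher by stage and 1 lower (38.1% and 10.6% of all genes). *Tcf15* and *Tbx18*, which limb cells also express, were higher in both genotypes and *Meox1* was lower in both. *Pax1*, a sclerotome gene that the limb bud also uses, had the largest change. It was at 0 in E9.25 WT, 8.27 to 34.6 TPM in E10.5 WT (4.36 ± 0.42, adjusted p = 0.000191) and 0 to 0.172 TPM in E10.5 mutants (-4.23 ± 0.40, adjusted p = 0.000645), and passed the filter through E10.5 WT alone. Only 4 of the 10 somite markers reached 1 TPM in any E10.5 WT library, and 1 was at 0 in all of them. Heart muscle markers were at 8.05 TPM in sum or below. The part of somite tissue in the stage differences of *Pax3* and *Lbx1* was not tested.

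**Figure D4:**
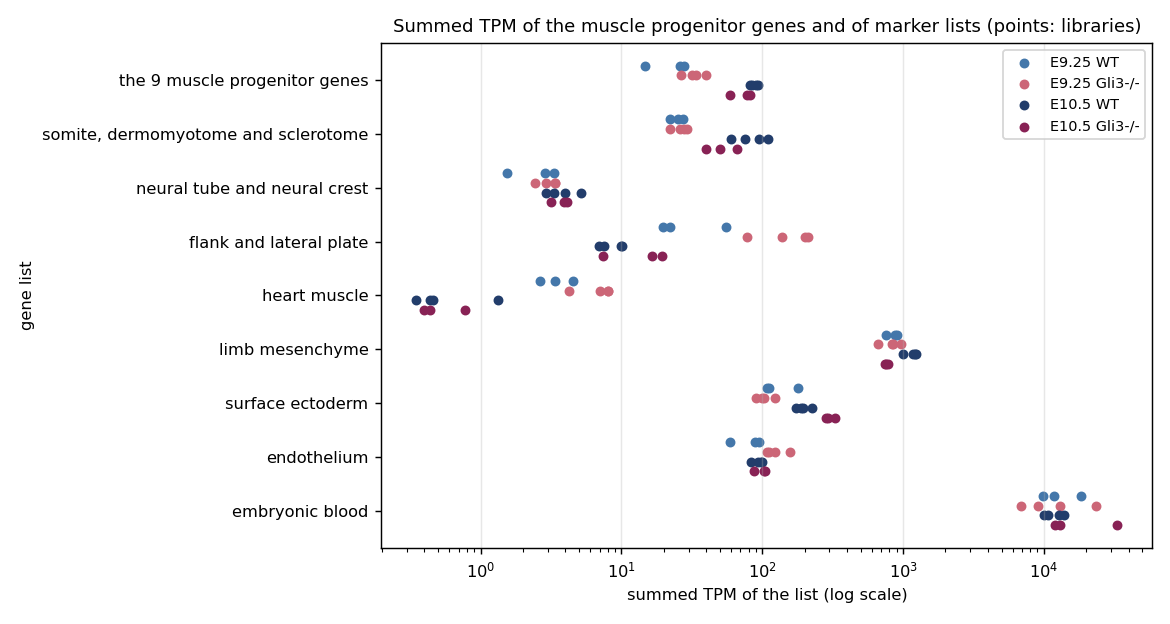
Summed TPM (x axis, log scale) of the 9 members and of 8 marker lists (y axis) in each library, coloured by group. The members and the somite markers are higher at E10.5, the neural markers stay between 1.55 and 5.16 TPM, and the flank and lateral plate markers are highest in E9.25 *Gli3*-/-.

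Among the members, only *Eya1* and *Eya2* overlap other annotated genes. *Eya1* shares positions with 2 listed genes and *Eya2* with 2, of which 1 each exceeded 1 TPM in a library, and both of those lie on the other strand. Whether reads were assigned by strand is not given in the sources used here, so that the values of *Eya1* and *Eya2* may hold reads of these neighbours. The other 7 members overlap no listed gene.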

How the data were processed

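RNA from 14 pools of forelimb buds was extracted with TRIzol and sequenced by the authors as single reads of 100 bases, which they aligned with HISAT2 to mm10 (build per the labels). The tool that made the gene tables is not given in the sources used here. The authors deposited for each gene its coverage (signal, mean read depth per base), FPKM and TPM, with no read counts. The deposited TPM was used throughout, and the deposited FPKM with the coverage gave only the estimate of depth, 38.1 to 56.8 M reads per library. TPM of gene IDs listed more than once was summed. DESeq2, which the authors used, needs counts and was not run.

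Genes that reached a TPM of 1 in 3 or more libraries of a comparison were tested on log2(TPM + 1) with limma 3.58.1 in R 4.3.3 (eBayes with trend, two-sided, Benjamini-Hochberg over all genes tested, threshold 0.05). The procedure was tested on simulated data. Other steps used Python 3.11.15, pandas 2.3.3, NumPy 2.4.6 and matplotlib 3.10.9. The members and the gene lists were chosen with earlier results of these data known. Some genes of the lists are not reported here. Named were all 9 members, up to 4 genes with the largest change among those called of each other list in the comparison described, the first 2 genes of a list as a check, the 5 genes most correlated with *Pax3* and with *Lbx1*, and *Gli3*; other names were chosen after their values were seen. Alternatives were a TPM filter of 5 or none, a smaller pseudocount (0.1), eBayes without trend, median-of-ratios size factors, quantile normalization, a block for the replicate number, weights for sample quality, 1 model of all 14 libraries, and each library left out in turn with the genes tested held fixed. Leaving out libraries for the correlations was added after seeing the data.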

Additional observations from a re-analysis of the deposited data

Results flagged for a closer look

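The effect of *Gli3* loss differed between the stages for *Eya1* (interaction -1.43, adjusted p = 0.00393, limma; higher in 4 of 4 E9.25 mutants than in any WT library and lower in 3 of 3 E10.5 mutants) and for *Lbx1* (interaction 1.07, adjusted p = 0.0445; lower in 4 of 4 E9.25 mutants than in any WT library, with overlapping groups at E10.5). The *Lbx1* call was lost in 4 of 8 other settings and in 11 of 14 fits without 1 library, whereas that of *Eya1* held in all of them. A single library stood far from the others of its group in 1 of 17 groups of 4 examined, where chance flags about 1 in 20: E9.25 *Gli3*-/- replicate 4 listed *Myf5* at 0.066 TPM, and the other 3 libraries listed it at 0. With 3 values tied at 0 any value above 0 would stand apart in this way.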

How the results depend on the processing

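The count of members called higher by stage in WT stayed at 7 in each fit without 1 library and was 6 with the filter at a TPM of 5, and that in *Gli3*-/- buds ran from 3 to 6 over the settings and from 4 to 5 without 1 library. For *Gli3* loss at E10.5 the count of 2 became 1 with eBayes without trend, with size factors, with quantile normalization and with sample quality weights, and 0 with no filter and with 1 model of all 14 libraries; without 1 library it was 0 to 1. No filter adds genes to the adjustment, and for the other settings the cause was not tested. At E9.25 the count of 0 became 2 with 1 model of all 14 libraries, and without 1 library it was 0 to 1. For the interaction the count of 2 became 1 with no filter, with the filter at a TPM of 5 and with sample quality weights, and was 1 to 3 without 1 library. Signs that changed all belonged to values near 0 that were not called. They were *Six4* at E10.5, 0.012 without E10.5 *Gli3*-/- replicate 3; the *Pax3* interaction, -0.026 without E10.5 *Gli3*-/- replicate 1 and -0.0028 without E9.25 WT replicate 3 (0.276 at most, without E10.5 *Gli3*-/- replicate 3); and the *Eya2* interaction, 0.016 with quantile normalization.

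With groups centred, libraries with the same number in their titles correlated between genotypes at -0.182 to -0.152 at E9.25 and -0.16 to 0.123 at E10.5. Those of the stages correlated at -0.266 to 0.13. Such values cannot show whether the numbers pair the libraries. The study's reporting summary numbers the E10.5 *Gli3*-/- libraries 2 to 4. Taken in that order, WT replicates 2, 3 and 4 correlated with title numbers 1, 2 and 3 at 0.05, 0.292 and 0.171. The replicate block used the title numbers. With the replicate block the count at E10.5 was 0 and that of the interaction 1, and the other 3 counts were 0 at E9.25, 7 and 4. The median r of the 5 genes named for *Pax3* was 0.441 with groups centred (0.981 to 0.989 without 1 library). That for *Lbx1* was 0.592 (0.985 to 0.989). Centring removes the differences of stage and of genotype, and the 5 genes were chosen for their r before centring. With a TPM of 1 resting on 20.7 to 29.3 reads per kilobase, the values of *Pax3*, *Pax7*, *Lbx1*, *Myf5* and *Myod1* at E9.25 rest on few reads, most of all for the short genes.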
